A study of Homo sapiens with 12 samples.

Results

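The genes described here are 10 transcription regulators that drive T-cell acute lymphoblastic leukaemia (T-ALL) or set T-cell identity: TAL1, LMO1, LMO2, LYL1, NOTCH1, NOTCH3, MYC, MYB, GATA3 and RUNX1. They were chosen by name, and every probe set that carries the symbol of a single gene was taken. Of the 10 genes, 9 had such a probe set, and together they had 18 of the 41091 single-symbol probe sets on the array. RUNX1 is listed on 13 probe sets, each of which also names another gene, and is not analysed here. The RNA came from Jurkat, a human T-cell leukaemia line, transduced with a construct encoding miR-21 or with the matching control vector. From each, RNA was profiled after immunoprecipitation (IP) of AGO2, the Argonaute protein that holds microRNAs and the transcripts they pair with, after IP with control IgG, and from the whole lysate (Total RNA). The 6 groups were AGO2 IP, IgG IP and Total RNA of miR-21 cells and AGO2 IP, IgG IP and Total RNA of control vector cells, with 2 replicates each, so 12 arrays in all. Per the labels, 1 µg of RNA was labelled for each Total RNA array and 100 ng for each IP array. The labels give no time after transduction, no vector name and no clone, and do not say whether replicates were separate cultures, so p-values measure the spread between these arrays, which may be technical.

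In T-ALL, TAL1 is a basic helix-loop-helix factor that is silent in normal maturing T cells and is switched on in the leukaemia. It binds DNA at E-boxes as a dimer with an E protein, and LMO1 or LMO2, which do not bind DNA themselves, bridge that dimer to LDB1 and a GATA factor. TAL1, GATA3, RUNX1 and MYB bind one another's regulatory regions and their own, which has been described as a core circuit of TAL1-positive leukaemia. LYL1 is a close relative of TAL1 that marks another form of the disease. NOTCH1, often mutated in T-ALL, and NOTCH3 are receptors whose cleaved inner part acts as a transcription activator, and MYC is among the main genes that activated NOTCH1 turns on.

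The mature strand of the microRNA that the construct encodes is shown because the cells differ by it. It is given as RefSeq has it on GRCh38.p14 at chr17:59841273-59841294, plus strand, with the seed (bases 2 to 8) in capitals.
hsa-miR-21-5p: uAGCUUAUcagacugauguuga

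RefSeq promoter windows, which run from 250 bases before to 50 bases after an annotated start, were matched for 8 of the 10 genes, 14 windows in all, and not for LMO2 or MYC. Both TAL1 windows and the LYL1 window are shown, since the TAL1 gene was on in these cells and its relative LYL1 was not above background. Each is written along the gene's own strand on GRCh38.p14. Capitals mark every match, on either strand, to GATAA (the core that GATA factors bind), CANNTG (the E-box) or TGTGGT (the core that RUNX factors bind). No printed match overlaps another. TAL1 window 1 lies at chr1:47232286-47232585, minus strand, TAL1 window 2 at chr1:47231666-47231965, minus strand, and the LYL1 window at chr19:13102809-13103108, minus strand.
TAL1 window 1: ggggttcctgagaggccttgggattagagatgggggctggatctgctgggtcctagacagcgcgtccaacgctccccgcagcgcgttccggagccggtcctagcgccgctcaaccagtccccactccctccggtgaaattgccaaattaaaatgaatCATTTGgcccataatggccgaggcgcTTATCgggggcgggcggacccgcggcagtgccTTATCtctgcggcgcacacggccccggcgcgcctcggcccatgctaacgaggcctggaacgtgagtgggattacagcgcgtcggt
TAL1 window 2: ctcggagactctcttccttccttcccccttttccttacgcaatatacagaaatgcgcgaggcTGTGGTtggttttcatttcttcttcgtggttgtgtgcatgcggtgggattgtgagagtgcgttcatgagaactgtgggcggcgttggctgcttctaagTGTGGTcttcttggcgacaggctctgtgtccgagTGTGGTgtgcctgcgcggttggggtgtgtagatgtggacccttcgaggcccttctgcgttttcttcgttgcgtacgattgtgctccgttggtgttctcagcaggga
LYL1 window: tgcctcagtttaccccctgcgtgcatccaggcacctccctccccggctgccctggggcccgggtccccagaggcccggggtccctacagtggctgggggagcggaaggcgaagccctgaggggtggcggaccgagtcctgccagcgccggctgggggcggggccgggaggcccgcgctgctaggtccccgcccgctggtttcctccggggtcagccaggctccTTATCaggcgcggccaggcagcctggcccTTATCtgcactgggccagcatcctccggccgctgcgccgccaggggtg
TAL1 window 1 held 2 GATAA matches and 1 E-box, TAL1 window 2 held 3 TGTGGT matches, and the LYL1 window held 2 GATAA matches. Over all 35116 windows of this length, GATAA was found in 22.7%, CANNTG in 68.7% and TGTGGT in 13.1%. A match describes the letters only, and the arrays did not measure binding.

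The arrays were first compared as wholes. The mean log2 value was 4.39 to 4.41 in the arrays of replicate 1 and 5.26 to 5.27 in those of replicate 2, so levels of the replicate numbers carry this shift, and every difference is relative to the other probe sets of the same arrays. Within a construct, AGO2 IP and IgG IP lay close together in replicate 2, with an SD of the difference over tested probe sets of 0.342 in miR-21 cells and 0.195 in control vector cells, against 0.764 and 0.821 in replicate 1. The ACTB 3' minus 5' signal, which grows as RNA is degraded or labelled from shorter templates, in replicate 1 was 1.97 and 4.0 in AGO2 IP (miR-21 and control vector cells), 2.08 and 2.18 for IgG, and 1.35 and 1.38 for Total RNA. In replicate 2 it was 2.08 and 2.58 for AGO2, 3.48 and 2.57 for IgG, and 3.18 and 3.53 for Total RNA. Of 11 T cell marker genes with a probe set, 10 were above background in all 4 Total RNA arrays (CD28 was above it in 1). Of the monocyte and macrophage markers, 0 of 4 were on, while CD79A of 5 B cell markers, HBB of 3 erythroid markers and KRT18 of 5 epithelial markers were on. In a bulk lysate, fewer cells with a transcript and less transcript per cell cannot be told apart.

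Which of these genes are on in Jurkat was asked of the 4 Total RNA arrays. A probe set was called on where it lay above background in all 4, background being the 95th percentile in the same array of 73 probe sets of 44 genes restricted to other tissues, such as liver, muscle or retina. By this rule 11 of the 18 probe sets were on, in 6 genes: TAL1, LMO1, GATA3, MYB, MYC and NOTCH1. LMO2, LYL1 and NOTCH3 had no probe set that was on. Across all single-symbol probe sets 40% were on. Of the 44 genes restricted to other tissues, 3 were themselves on by this rule, with 1 probe set per gene. They were SFTPC, SFTPB and AQP2, with means in Total RNA of 6.27, 5.55 and 5.06, beside 5.77 for LMO1. Background was 4.42 and 5.47 in miR-21 cells (replicates 1 and 2) and 4.36 and 5.23 in control vector cells on the log2 scale.

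Among the members of the TAL1 complex, TAL1 itself was read by 4 probe sets. Its 206283_s_at gave 10.31 and 11.15 in Total RNA of miR-21 cells (replicates 1 and 2) and 10.07 and 11.04 in Total RNA of control vector cells, which is 5.69 to 5.88 above background in the same arrays. The other TAL1 probe sets did not all read alike: 216925_s_at lay 2.35 to 2.59 and 1561651_s_at 0.48 to 0.89 above background, while 216928_at lay 1.05 to 1.26 below it in all 4 arrays and failed the filter on low values. Which TAL1 transcripts each probe set reads is not given in the files.

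LMO1, the bridging partner, had 5.70 and 5.95 in Total RNA of miR-21 cells and 5.41 and 6.02 in Total RNA of control vector cells. It lay only 0.48 to 1.27 above background and lost its place in some arrays under a stricter background (the 99th percentile). Its relative LMO2 was not above background in any of the 12 arrays with either probe set. In AGO2 IP of control vector cells in replicate 2, 204249_s_at stood at the edge of background (4.92 for both). Against the median of each array, that probe set was above it in some Total RNA arrays and not in others. LMO2 204249_s_at had 2.48 and 4.32 in miR-21 Total RNA and 2.29 and 4.66 in control vector Total RNA, and 231049_at had 2.04 and 2.50 in miR-21 Total RNA and 2.37 and 2.85 in control vector Total RNA. So of these LIM-only genes, LMO1 mRNA was above background and LMO2 mRNA was not detectable at this background. Their proteins were not measured.

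LYL1 210044_s_at had 4.11 and 4.76 in miR-21 Total RNA and 4.31 and 4.81 in control vector Total RNA, which is 0.05 to 0.70 below background. It passed the filter on low values and would count as on against the median of each array, so its state rests on the background chosen. GATA3, the GATA factor of T cells, was on with all 3 of its probe sets, which lay 6.02 to 6.50 (209604_s_at), 3.90 to 4.36 (209602_s_at) and 2.68 to 3.26 (209603_at) above background. MYB, which TAL1-positive leukaemia cells depend on, was on with both probe sets, 204798_at at 7.23 to 7.71 and 215152_at at 1.82 to 2.29 above background.

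NOTCH1 was on with 218902_at, 1.66 to 2.68 above background, and not with 223508_at, which lay 0.52 to 1.56 below it. NOTCH3 203237_s_at lay at or under background in all 4 Total RNA arrays, by at most 0.40, and 203238_s_at was above it in 1 of 4, by 0.14. NOTCH3 is therefore placed at the edge of detection: against each array's median 203237_s_at would be on. MYC, the target of NOTCH1 in this disease, was on with its single probe set, 6.24 to 7.16 above background. With the array median as background 13 probe sets were on, and with the 99th percentile 9.

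**Figure D1:**
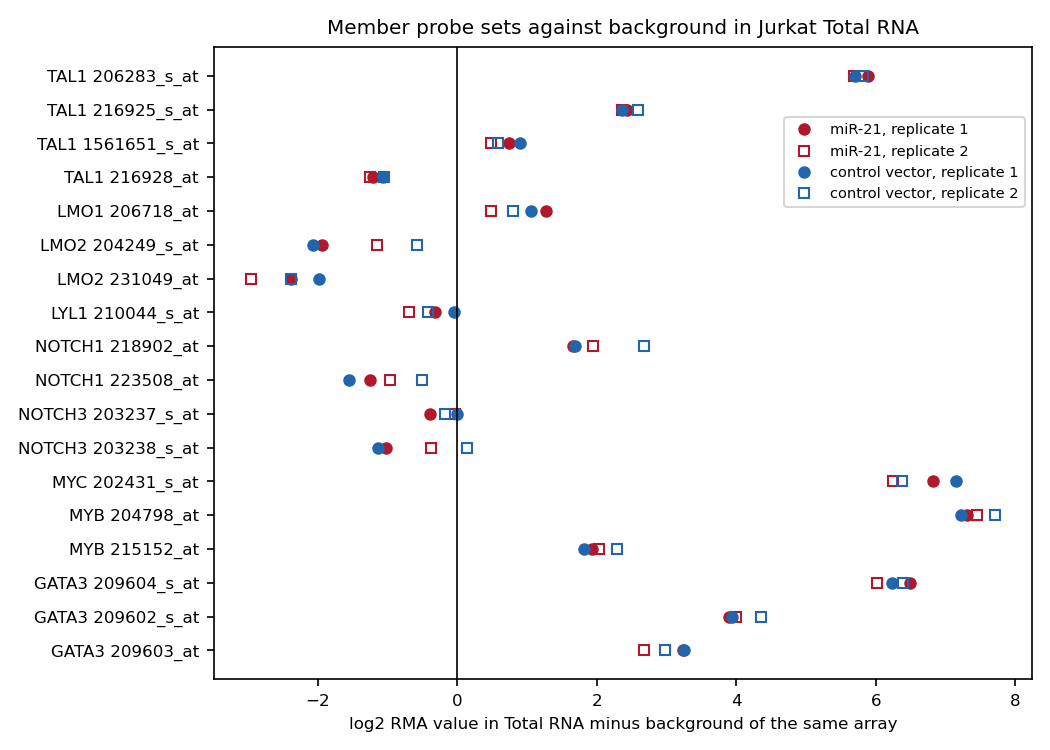
Each row is a member probe set, and each point is its log2 value in a Total RNA array minus the background of that array, for miR-21 cells (red) and control vector cells (blue), replicate 1 (filled circles) and replicate 2 (open squares). The vertical line at 0 is background: 11 probe sets have all 4 points to its right, and LMO2 and LYL1 have all points to its left.

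How well the AGO2 purification recovered each member was read from AGO2 IP against Total RNA, over both constructs (4 arrays against 4). The amount of RNA labelled differed between the same arrays, so its part cannot be told apart from recovery. GATA3 lay lower in AGO2 IP on all 3 of its probe sets, by 0.54 to 0.95 in the mean, of which 1 passed the test described next. NOTCH1 218902_at lay 0.81 lower without passing it, while TAL1, LMO1, LYL1 and the main MYB probe set differed by 0.25 or less. MYC was higher in AGO2 IP in replicate 1 but not in replicate 2. The 4 member probe sets that failed the filter on low values (TAL1 216928_at, both of LMO2 and NOTCH1 223508_at) were not tested. With a limma model of the 6 group means and no term for the replicate number, none of the 14 member probe sets that passed the filter was called at an adjusted p under 0.05, nor was any of the 23123 tested (0%). That model counts the shift between replicate numbers as spread, so the absence of calls does not show that recovery was equal. At an unadjusted p under 0.05 the count was 1848 of all tested and 0 of the members. With the replicate number as a block, 13.8% of all tested were called (3.89% higher, 9.91% lower) and 1 of the 14 members, GATA3 209602_s_at, which was lower. A share of 1 in 14 is no more than the background share. The median difference was -0.08 over the 14 and -0.05 over all tested. SEs and adjusted p below are limma's with the block unless stated. Values within a replicate, and changes between replicates, come from another limma fit. It has a mean for each fraction and replicate number and a construct term. There the miR-21 and control vector arrays of a replicate number serve as the replicates, so its p-values rest on the spread between constructs.

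GATA3 209602_s_at had 7.97 and 8.30 in AGO2 IP of miR-21 cells and 7.20 and 8.39 in AGO2 IP of control vector cells. In IgG IP it had 8.01 and 8.54 in miR-21 cells and 7.72 and 8.63 in control vector cells. In Total RNA it had 8.32 and 9.45 in miR-21 cells and 8.30 and 9.59 in control vector cells. Within each replicate number both AGO2 IP arrays lay below both Total RNA arrays. The share of all tested with that order is not given here, while 22.8% were below 0 in all 4 pairs. AGO2 IP minus Total RNA was -0.95 (SE 0.22), with a limma adjusted p of 0.0266 with the block and 0.737 without it. It was -0.72 within replicate 1 (limma adjusted p = 0.0524) and -1.18 within replicate 2 (limma adjusted p = 0.0056). With the block the call was lost without AGO2 IP of control vector cells in replicate 1 (limma adjusted p = 0.0631), either miR-21 AGO2 IP array (0.0654 and 0.118), Total RNA of miR-21 cells in replicate 1 (0.0560) or either Total RNA array of replicate 2 (0.114 for miR-21, 0.111 for control vector). It was also lost after cyclic loess (-0.84, limma adjusted p = 0.0594 with the block).

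The other GATA3 probe sets lay lower in AGO2 IP as well, without passing the threshold in the same fit. GATA3 209604_s_at had 10.43 and 10.45 in AGO2 IP of miR-21 cells and 10.25 and 10.29 in AGO2 IP of control vector cells, against 10.92 and 11.48 in Total RNA of miR-21 cells and 10.59 and 11.62 in Total RNA of control vector cells. Within each replicate number both AGO2 IP arrays lay below both Total RNA arrays, an order whose share over all tested is not given here. The difference for 209604_s_at was -0.80 (SE 0.23, limma adjusted p = 0.0507). With the block it was called with 1 probe set per gene (limma adjusted p = 0.0449) and after median centring (limma adjusted p = 0.0455). Without the control vector Total RNA array of replicate 1, both this probe set and NOTCH1 218902_at were called. GATA3 209603_at differed by -0.54 (SE 0.22, limma adjusted p = 0.140), and in replicate 1 of miR-21 cells it was 0.07 higher in AGO2 IP than in Total RNA. All 3 probe sets were called lower within replicate 2, where 17.4% of all tested were. In that replicate the ACTB 3' minus 5' signal was lower in AGO2 IP (2.08 and 2.58) than in Total RNA (3.18 and 3.53), and in replicate 1 it was higher (1.97 and 4.0, against 1.35 and 1.38). Its part in the values of GATA3, NOTCH1 and NOTCH3 was not tested.

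NOTCH1 218902_at had 5.47 and 6.41 in AGO2 IP of miR-21 cells and 5.91 and 6.42 in AGO2 IP of control vector cells. Its Total RNA values were 6.08 and 7.41 in miR-21 cells and 6.05 and 7.91 in control vector cells. Every AGO2 IP value was below the Total RNA value of its own construct and replicate, and the gap was wider in replicate 2. The mean difference was -0.81 (SE 0.25, limma adjusted p = 0.0615), with -0.37 within replicate 1 and -1.24 within replicate 2 (limma adjusted p = 0.0023 for replicate 2). NOTCH3 203238_s_at, at the edge of detection, also was lower within replicate 2 (-0.72, limma adjusted p = 0.0214) but not within replicate 1 (0.09).

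MYC 202431_s_at had 13.05 and 12.25 in AGO2 IP of miR-21 cells and 12.56 and 10.79 in AGO2 IP of control vector cells. In IgG IP it had 11.42 and 12.10 in miR-21 cells and 11.79 and 10.84 in control vector cells. In Total RNA it had 11.24 and 11.71 in miR-21 cells and 11.52 and 11.61 in control vector cells. In replicate 1 both AGO2 IP arrays stood above both Total RNA arrays, and the share of all tested that did so is not given here. In replicate 2 the AGO2 IP array of miR-21 cells was above and that of control vector cells below. Within replicate 1 the difference was 1.43 (limma adjusted p = 0.0338), where 8.52% of all tested were called higher. Within replicate 2 it was -0.14 (limma adjusted p = 0.840). The change of the difference between replicates, 1.56, did not pass (limma adjusted p = 0.0953), and the mean over both was 0.64 (SE 0.39, limma adjusted p = 0.313).

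MYB 204798_at had 11.98 and 13.29 in AGO2 IP of miR-21 cells and 11.87 and 13.02 in AGO2 IP of control vector cells, against 11.73 and 12.91 in Total RNA of miR-21 cells and 11.59 and 12.94 in Total RNA of control vector cells. It was the only member above 0 in all 4 construct and replicate pairs, by 0.08 to 0.38, as 13% of all tested were, and its mean difference of 0.25 (SE 0.21, limma adjusted p = 0.476) did not pass. MYB 215152_at went apart from it: AGO2 IP minus Total RNA was -0.34 and -0.02 in miR-21 cells and -1.37 and 1.05 in control vector cells. Its lowest value, 4.81, was in the control vector AGO2 IP array of replicate 1, whose ACTB 3' minus 5' signal of 4.0 was the highest of the 12. The part of RNA quality in that value was not tested.

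TAL1 206283_s_at had 10.51 and 11.11 in AGO2 IP of miR-21 cells and 10.05 and 10.58 in AGO2 IP of control vector cells. Within each replicate number these overlap its Total RNA values, and the difference was -0.08 (SE 0.19, limma adjusted p = 0.822). The TAL1 probe sets 216925_s_at and 1561651_s_at differed by -0.07 and -0.06, LMO1 by 0.13 (SE 0.19) and LYL1, itself not above background in Total RNA, by 0.16 (SE 0.25). LYL1 had 4.46 and 4.76 in AGO2 IP of miR-21 cells and 4.98 and 4.45 in AGO2 IP of control vector cells, above Total RNA in replicate 1 (0.35 in miR-21 cells, 0.67 in control vector cells) and below it in replicate 2 (-0.01 and -0.36). A p that misses the threshold does not show that recovery was equal. Below 0 in all 4 pairs were 3 members (NOTCH1 218902_at, GATA3 209604_s_at and GATA3 209602_s_at), as were 22.8% of all tested.

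**Figure D2:**
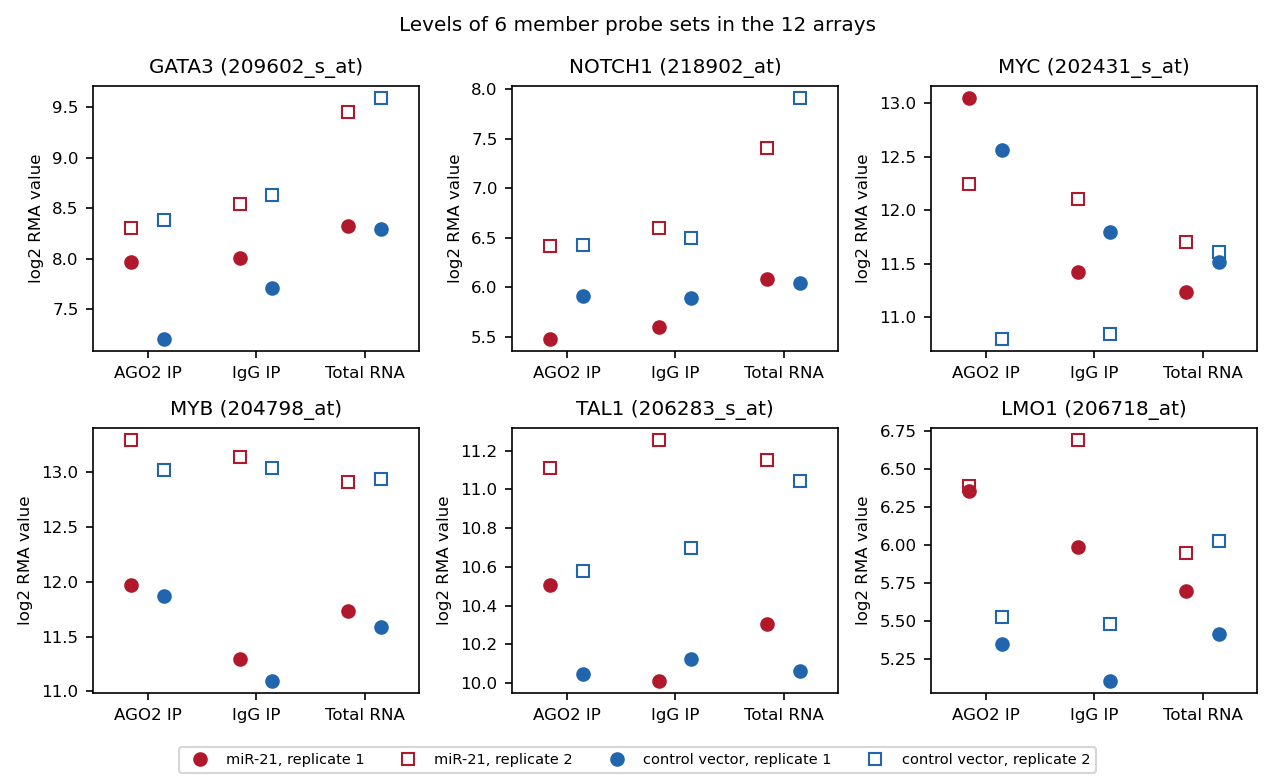
Log2 RMA values of 6 member probe sets in AGO2 IP, IgG IP and Total RNA, 1 point per array, for miR-21 cells (red) and control vector cells (blue), replicate 1 (filled circles) and replicate 2 (open squares), with a separate vertical scale in each panel. GATA3 209602_s_at is lower in AGO2 IP than in Total RNA in each construct and replicate, and the control vector MYC points of replicate 2 are low in both IPs (10.79 and 10.84).

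IgG IP against Total RNA gives the recovery without the AGO2 antibody, and it shares the Total RNA arrays with the comparison above. Here too the amount of RNA labelled cannot be told apart from recovery. The GATA3 probe sets and NOTCH1 218902_at lay below Total RNA here too. GATA3 209602_s_at differed by -0.69 (SE 0.22, limma adjusted p = 0.137), 209604_s_at by -0.56 (SE 0.23, limma adjusted p = 0.233), 209603_at by -0.31 (SE 0.22, limma adjusted p = 0.508) and NOTCH1 218902_at by -0.72 (SE 0.25, limma adjusted p = 0.164). None of the 14 was called, with the block (2.59% of all tested, 0.29% higher and 2.31% lower) or without it (0%, with 703 of all tested and 0 members at an unadjusted p under 0.05). Within replicate 2 alone all 3 GATA3 probe sets and NOTCH1 218902_at were called lower, where 14.9% of all tested were.

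NOTCH1 218902_at had 5.59 and 6.60 in IgG IP of miR-21 cells and 5.89 and 6.49 in IgG IP of control vector cells, all below the Total RNA value of the same construct and replicate. The fall within replicate 2 was -1.11 (limma adjusted p = 0.0045), and within replicate 1 the difference was -0.32. In pairs of the same construct and replicate, NOTCH1 218902_at, GATA3 209604_s_at and GATA3 209602_s_at were below 0 in all 4, as were 19% of all tested, and no member was above 0 in all 4 (11.7% of all tested). The mean difference of MYC was 0.02 (SE 0.39, limma adjusted p = 0.986), with pairs of 0.18 and 0.40 in miR-21 cells and 0.28 and -0.77 in control vector cells. MYB 204798_at, with 11.30 and 13.14 in IgG IP of miR-21 cells and 11.09 and 13.04 in IgG IP of control vector cells, lay below Total RNA in replicate 1 (-0.43 in miR-21 cells, -0.50 in control vector cells) and above it in replicate 2 (0.23 and 0.10). LYL1 had 4.91 and 4.69 in IgG IP of miR-21 cells and 4.99 and 4.60 in IgG IP of control vector cells, which is 0.81 and 0.68 above Total RNA in replicate 1 and -0.08 and -0.20 from it in replicate 2. LMO1 lay above Total RNA in IgG IP of miR-21 cells (0.29 and 0.74) and below it in IgG IP of control vector cells (-0.31 and -0.55).

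Markers of the cell type moved in the same comparisons. The 11 T cell marker genes had a median of -0.45 in AGO2 IP against Total RNA (-0.05 over all tested), with 2 called lower (9.91% of all tested), and -0.27 in IgG IP against Total RNA (-0.01 over all tested), with none called. Their summed log2 level in replicate 1 was 13.00 to 13.04 in AGO2 IP, 13.04 to 13.18 in IgG IP and 13.14 to 13.23 in Total RNA. In replicate 2 it was 13.29 to 13.57 in AGO2 IP, 13.45 to 13.76 in IgG IP and 14.01 to 14.15 in Total RNA, and their part in the GATA3 values was not tested.

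**Figure D3:**
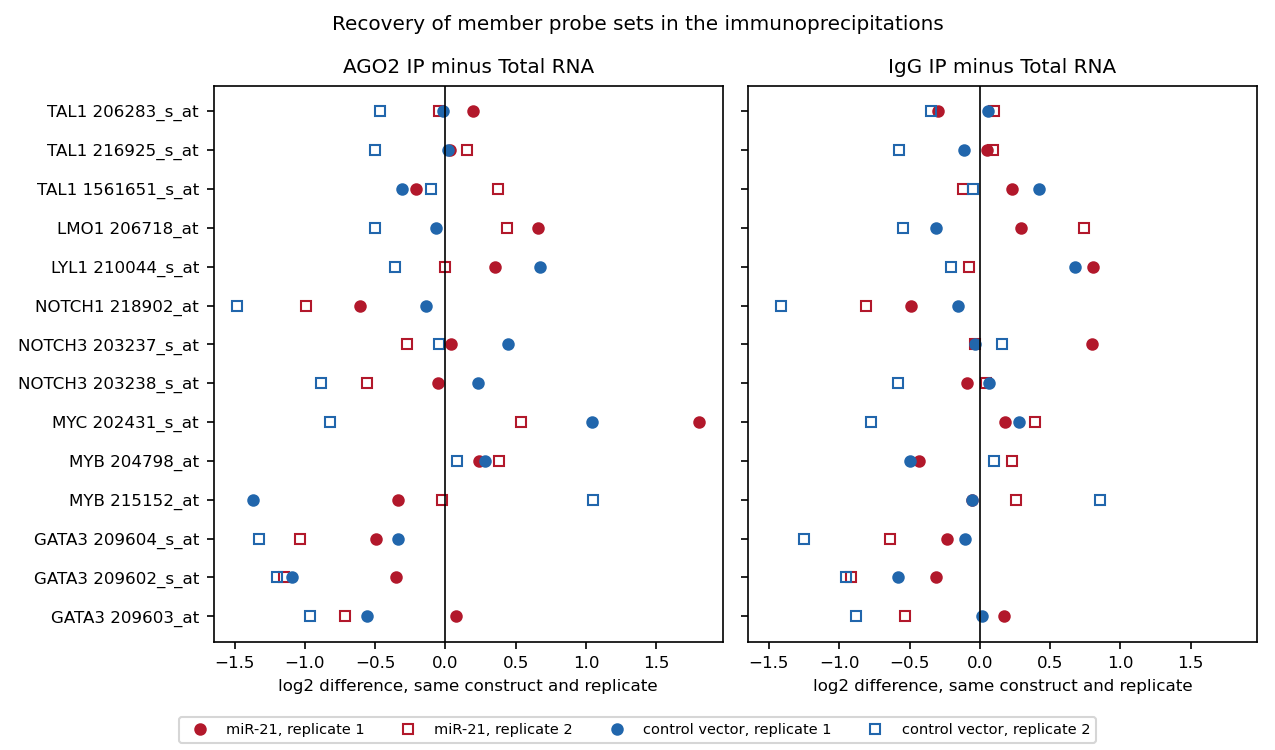
Each point is the log2 value in AGO2 IP (left) or IgG IP (right) minus Total RNA of the same construct and replicate, for the 14 member probe sets that passed the filter, coloured by construct (miR-21 red, control vector blue) and shaped by replicate (1 filled circles, 2 open squares). GATA3 209602_s_at and NOTCH1 218902_at lie left of 0 in all 4 pairs of both panels, and MYC spreads from -0.82 to 1.81 in AGO2 IP.

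AGO2 IP against IgG IP is the comparison meant to separate what the AGO2 antibody adds. In replicate 2 it separated little: the SD of the difference was 0.342 in miR-21 cells and 0.195 in control vector cells. No probe set was called, with or without the block (0% of 23123 each), although 44 had an unadjusted p under 0.05 without the block and 1039 with it. All 3 GATA3 probe sets were below 0 in all 4 pairs, as were 11.7% of all tested, with mean differences of -0.24 (209604_s_at), -0.26 (209602_s_at) and -0.23 (209603_at). In control vector cells of replicate 2 their differences were -0.08, -0.25 and -0.09 in the same order. No member was above 0 in all 4, against 5.49% of all tested. The median was -0.16 over the 14 members and -0.08 over all tested.

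MYC and 1 of the MYB probe sets stood higher in AGO2 IP in replicate 1, while the other MYB probe set stood lower. MYB 204798_at was 0.73 higher there (limma adjusted p = 0.0311), where 7.42% of all tested were called higher, and 0.07 higher in replicate 2. MYC was 1.20 higher in replicate 1 (limma adjusted p = 0.0944) and 0.05 higher in replicate 2, in which AGO2 IP and IgG IP of the same construct were close over all probe sets. Over both replicates the differences were 0.62 (SE 0.39) for MYC and 0.40 (SE 0.21) for MYB 204798_at, each with a limma adjusted p of 0.881. MYB 215152_at was -0.80 in replicate 1 (-0.28 in miR-21 cells and -1.32 in control vector cells, limma adjusted p = 0.245) and -0.42 over both replicates (SE 0.41, limma adjusted p = 0.882). With AGO2 IP of control vector cells and IgG IP of miR-21 cells dropped from replicate 2, the MYC difference was 1.24 (limma adjusted p = 0.0956).

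The construct comparison asks whether miR-21 changed the level of these genes in each fraction (2 arrays against 2). In Total RNA the members' differences within a replicate ran from -0.50 (NOTCH1 218902_at) to 0.38 (NOTCH3 203237_s_at), with a median of 0.02 over the 14 and 0.02 over all tested. None was called in any fraction, with or without the block, nor was any of the probe sets tested (0% each). LMO1 was the member whose IP arrays separated by construct. MYC and TAL1 206283_s_at were above 0 in AGO2 IP in both replicates without passing the threshold.

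LMO1 had 6.35 and 6.39 in AGO2 IP of miR-21 cells, against 5.35 and 5.53 in AGO2 IP of control vector cells. In IgG IP it had 5.99 and 6.69 in miR-21 cells, against 5.10 and 5.48 in control vector cells. All 4 miR-21 IP arrays lay above all 4 control vector IP arrays, which held for 0.813% of all tested, a comparison made after the values were seen. In replicate 2 the IPs grouped by construct over all probe sets tested. There the SD of miR-21 minus control vector was 0.603 in AGO2 IP and 0.619 in IgG IP. That of AGO2 IP minus IgG IP was 0.342 in miR-21 cells and 0.195 in control vector cells. In replicate 1 the latter was larger (0.764 and 0.821, against 0.570 and 0.335 between constructs). Within replicate 2 the IPs of a construct therefore give little separate evidence. The LMO1 values in Total RNA given above overlapped. miR-21 minus control vector was 0.93 in AGO2 IP (SE 0.27, unadjusted p = 0.0070), 1.05 in IgG IP (SE 0.27, unadjusted p = 0.0036) and 0.10 in Total RNA (SE 0.27), and over all probe sets tested the limma adjusted p was 1.00 in each. The difference stood in IgG IP as much as in AGO2 IP: the construct difference in AGO2 IP minus that in IgG IP was -0.11 (SE 0.38, limma adjusted p = 1.00).

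MYC was higher in miR-21 cells by 0.49 and 1.45 in AGO2 IP (replicates 1 and 2), by -0.37 and 1.26 in IgG IP and by -0.28 and 0.09 in Total RNA. The values of 1.45 and 1.26 are both from replicate 2, where the IPs grouped by construct, and are likewise little separate evidence. The mean MYC difference in AGO2 IP was 0.97 (SE 0.55, unadjusted p = 0.115, limma adjusted p = 1.00), and it was 0.23 with AGO2 IP of control vector cells and IgG IP of miR-21 cells dropped from replicate 2. TAL1 206283_s_at differed by 0.46 and 0.53 in AGO2 IP, by -0.11 and 0.56 in IgG IP and by 0.24 and 0.11 in Total RNA. MYB 215152_at pointed both ways in AGO2 IP, by 1.20 in replicate 1 and -1.11 in replicate 2. Of the 14 members, 7 were above 0 in both replicates in AGO2 IP (27.1% of all tested), 7 in IgG IP (27.8%) and 2 in Total RNA (29.2%), and below 0 in both were 1 in AGO2 IP (18.2%), 0 in IgG IP (25%) and 1 in Total RNA (21.1%). The medians were 0.25 in AGO2 IP and 0.20 in IgG IP over the 14, and 0.06 and 0.01 over all tested.

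**Figure D4:**
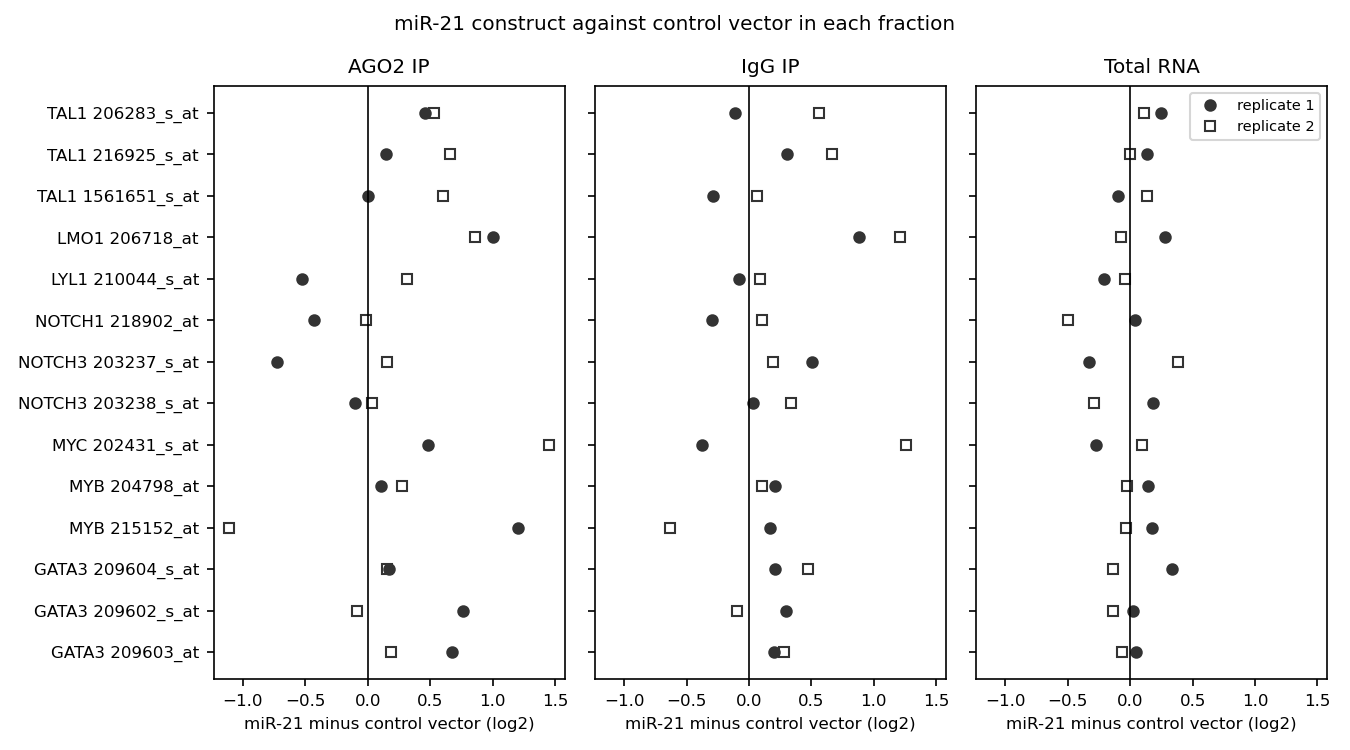
Each point is miR-21 minus control vector in log2 RMA units within a replicate (1 filled circles, 2 open squares), in AGO2 IP, IgG IP and Total RNA, for the 14 member probe sets that passed the filter. LMO1 lies between 0.86 and 1.21 in both IPs and near 0 in Total RNA (0.28 and -0.07).

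Partner genes were read from 4 lists, 1 probe set per gene, the one with the highest mean. The share of all genes on by such a probe set is not given here, and the 40% above is over all probe sets. Of the TAL1 complex partners (the E proteins TCF3, TCF4 and TCF12, the scaffold LDB1, its stabilisers, GATA and co-repressor genes), 12 of 13 were on in Total RNA and GATA1, the erythroid GATA factor, was not. Of the 12, GATA2 had a mean of 5.50, below SFTPC (6.27) and SFTPB (5.55), genes restricted to other tissues that were also on. In AGO2 IP against Total RNA with the block, 0 rose and 2 of 13 fell, where 9.91% of all tested were called lower: SSBP3, which protects LDB1 from breakdown (-1.04, SE 0.215, limma adjusted p = 0.021), and SIN3A, a scaffold of histone deacetylase complexes (-1.01, SE 0.257, limma adjusted p = 0.035). The list's median was -0.57, against -0.05 over all probe sets tested, and -0.30 in IgG IP against Total RNA, where none was called. The further SSBP3 probe sets differed by -0.41 and -0.10, and those of SIN3A by -0.71 and -0.22.

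Of the NOTCH pathway genes, 33 of 35 had a probe set and 22 were on. At or below background in every Total RNA array were the receptor NOTCH4, the ligands DLL1 and DLL4, the secretase subunit PSEN2, the coactivators MAML2 and MAML3, the antagonist NUMB and the target HEY1. Of 27 tested, 0 rose and 3 fell in AGO2 IP against Total RNA, which is near the share over all tested (9.91% lower). They were SPEN, a co-repressor that works with RBPJ (-2.27, SE 0.304, limma adjusted p = 0.007), the receptor NOTCH2 (-1.61, SE 0.29, limma adjusted p = 0.015) and HES4, a repressor of the HES family (-1.13, SE 0.232, limma adjusted p = 0.020). SPEN had 7.65 and 7.19 in AGO2 IP of miR-21 cells and 7.02 and 6.91 in AGO2 IP of control vector cells, against 8.97 and 9.85 in Total RNA of miR-21 cells and 9.05 and 9.99 in Total RNA of control vector cells, lower in AGO2 IP in each construct and replicate. SPEN (-2.00, limma adjusted p = 0.015) and NOTCH2 (-1.51, limma adjusted p = 0.034) also fell in IgG IP. The list's median was -0.09 in AGO2 IP and -0.15 in IgG IP.

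Of the MYC and MYB network, 17 of 19 genes had a probe set, and all 17 were on. In AGO2 IP against Total RNA 1 of 17 rose and 6 of 17 fell, beside 3.89% called higher and 9.91% called lower over all tested. The falls were led by the acetyltransferase EP300, a MYB coactivator (-2.07, SE 0.263, limma adjusted p = 0.006), the ubiquitin ligase MYCBP2 (-2.01, SE 0.27, limma adjusted p = 0.007) and TRRAP, a scaffold that MYC recruits (-1.99, SE 0.321, limma adjusted p = 0.012), and all 3 fell in IgG IP too, by -1.58, -1.93 and -1.53. The rise was in MYCN, a MYC relative (1.99, SE 0.451, limma adjusted p = 0.026). MYCN had 8.33 and 9.49 in AGO2 IP of miR-21 cells and 6.81 and 7.21 in AGO2 IP of control vector cells, against 5.09 and 7.20 in Total RNA of miR-21 cells and 4.69 and 6.90 in Total RNA of control vector cells. Its other probe sets differed by -0.02 and 0.23, so the rise was seen with 1 of 3. On the probe set that rose, IgG IP minus Total RNA was 0.84 (SE 0.451, limma adjusted p = 0.357), which was not called. Within replicate 2 MYCN was higher than Total RNA by 1.30 in AGO2 IP and by 1.21 in IgG IP. AGO2 IP minus IgG IP was 2.21 within replicate 1 and 0.09 within replicate 2, so only replicate 1 set the IPs apart.

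Of the other T-lineage and T-ALL regulators, 20 of 24 had a probe set and 13 were on, among them BCL11B, IKZF1, LEF1, ETS1 and WT1. TLX1, TLX3, TAL2, LMO3, MEF2C, ERG and SPI1, each of which marks another form of leukaemia or another blood lineage, were at or below background. NKX2-1, also a T-ALL regulator of this list, was above background in all 4 Total RNA arrays (mean 6.20). That is no higher than SFTPC (6.27), a gene restricted to other tissues that was also on, so its expression is not settled here. The list therefore does not set these cells apart from every other form. Of the 13 tested, WT1, a zinc finger factor mutated in part of T-ALL, rose in AGO2 IP against Total RNA (1.46, SE 0.345, limma adjusted p = 0.029), with 1.63 on its other probe set, and IKZF1, the lymphoid factor Ikaros, fell (-0.69, SE 0.174, limma adjusted p = 0.034). The other 4 probe sets of IKZF1 differed by -0.55 to -0.14 and were not called (limma adjusted p of 0.266 to 0.632), so that fall was seen with 1 of 5. Over all tested, 3.89% were called higher and 9.91% lower. For WT1, IgG IP minus Total RNA was 0.54 (SE 0.345, limma adjusted p = 0.438), which was not called. Within replicate 2 WT1 was higher than Total RNA by 1.04 in AGO2 IP and by 0.94 in IgG IP. Its AGO2 IP minus IgG IP was 1.72 within replicate 1 and 0.10 within replicate 2. None of the 4 lists had a call without the block, in AGO2 IP against IgG IP or between constructs.

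**Figure D5:**
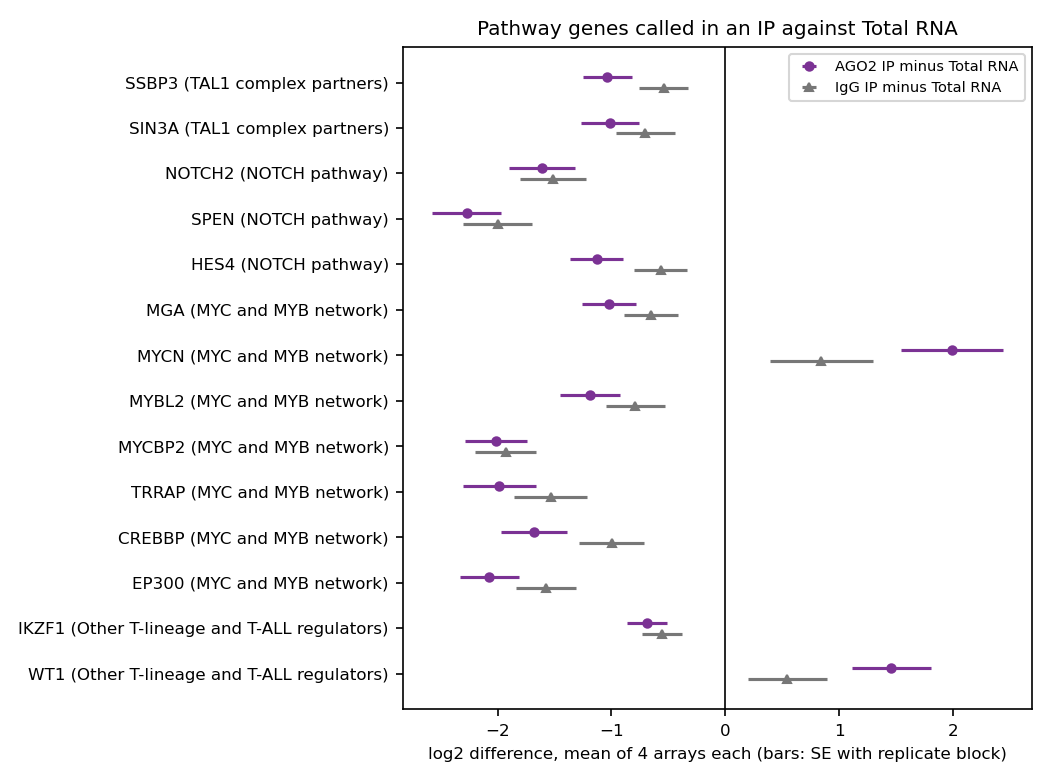
Log2 differences of the partner genes called with the replicate block in an IP against Total RNA: AGO2 IP (purple circles) and IgG IP (grey triangles), each the mean of 4 arrays against 4, with bars for the SE. MYCN (1.99) and WT1 (1.46) lie above 0, and the other 12 genes lie below it in both IPs.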

How the data were processed

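The deposited values are log2 values from RMA, made by the authors per the submitters' processing notes. The version of RMA is not given in the sources used here, and how far RMA normalized the 12 arrays together is not given either. RMA makes arrays that are normalized together alike. Here the array means were alike within a replicate number and differed between the numbers. An IP difference is relative to other transcripts and carries no amount of RNA. Per the labels less RNA was labelled for IPs (100 ng) than for Total RNA (1 µg), which cannot be told apart from recovery.

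Of 54675 probe sets, 41091 carried a single gene symbol in the platform annotation. Those with a mean over the 12 arrays of at least 4.02, which is the median once control probe sets are set aside, were tested (23123). limma 3.58.1 in R 4.3.3 was fitted to all 12 arrays with 6 group means and no replicate block (6 residual degrees of freedom), with Benjamini-Hochberg adjustment over all probe sets tested, in 9 contrasts. Values within a replicate came from another limma fit to the 12 arrays, with a mean for each fraction and replicate number and a construct term. Numbers pair the arrays by their data: with group means subtracted, arrays of the same number correlated at 0.429 to 0.875 over 15 pairs of groups, so the fit with the block is given where it changes a call. The fits of the group means, with and without the block, were tested on simulated data.

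All single-symbol probe sets of the 10 genes are reported, and of the lists up to 4 called genes each by size of difference. Members and lists were chosen with earlier results of these data known. The interaction of construct with IgG IP against Total RNA was added after the values were seen. The number of arrays limits the precision.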

Additional observations from a re-analysis of the deposited data

Results flagged for a closer look

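The 3 results below had all replicates of miR-21 cells on one side of 0 and all of control vector cells on the other, in the recovery from an IP. The share of all tested probe sets that did so was not counted. Whether 3 is more than other probe sets would give is therefore not known. LMO1 206718_at in AGO2 IP minus Total RNA was 0.66 and 0.44 in miR-21 cells (replicates 1 and 2) and -0.07 and -0.50 in control vector cells. The interaction of construct with this difference was 0.83 (SE 0.38 and unadjusted p = 0.0562 with the replicate block), with a limma adjusted p of 1.00.

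LMO1 206718_at in IgG IP minus Total RNA was 0.29 and 0.74 in miR-21 cells and -0.31 and -0.55 in control vector cells, an interaction of 0.94 (SE 0.38, unadjusted p = 0.0343, limma adjusted p = 1.00). TAL1 216925_s_at in IgG IP minus Total RNA was 0.05 and 0.09 in miR-21 cells and -0.11 and -0.57 in control vector cells, an interaction of 0.41 (SE 0.37, unadjusted p = 0.289, limma adjusted p = 1.00). None of the 3 passed the threshold over all probe sets tested.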

How the results depend on the processing

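In AGO2 IP against Total RNA, 0 members were called without the replicate block. With the replicate block 1 was called, GATA3 209602_s_at, as with no filter, with a mean of at least 6, and with AGO2 IP of control vector cells and IgG IP of miR-21 cells dropped from replicate 2. With the block and 1 probe set per gene, which leaves out 209602_s_at, 1 was called, GATA3 209604_s_at. With the block, 2 were called after median centring (both of these) and 0 after cyclic loess. Leaving out each array in turn gave 0 to 3. Within replicate 1, 1 was called higher in AGO2 IP against Total RNA (8.52% of all tested higher, 20.6% lower). In AGO2 IP against IgG IP 1 was called higher there (7.42% of all tested higher, 4.67% lower). Within replicate 2, 5 were called lower in AGO2 IP against Total RNA and 0 higher, beside 17.4% and 16.8% of all tested. In IgG IP against Total RNA 4 were called lower there and 0 higher, beside 14.9% and 15.5% of all tested. The block changed no other member count. Members with 1 sign in all 4 pairs numbered 4 in AGO2 IP against Total RNA (13% of all tested above 0, 22.8% below) and 1 after cyclic loess. In AGO2 IP against IgG IP they numbered 3 (5.49% of all tested above 0, 11.7% below) and 5 after median centring. The shares of all tested after cyclic loess and after median centring are not given here, so these changes are not a result about the members.

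Signs turned for small differences. TAL1 206283_s_at in AGO2 IP against Total RNA was 0.090 within replicate 1 and -0.33 to 0.16 when an array was left out. TAL1 216925_s_at there was 0.063 after cyclic loess, with and without the block, 0.017 without the pair of arrays named above, 0.023 within replicate 1 and -0.35 to 0.20 when an array was left out (0.019 without AGO2 IP of control vector cells in replicate 2, with the block). MYC in AGO2 IP against Total RNA was -0.14 within replicate 2. MYC in IgG IP against Total RNA was -0.12 after cyclic loess, -0.23 without the same pair of arrays, -0.19 within replicate 2 and -0.30 to 0.34 when an array was left out, with -0.22 without IgG IP of control vector cells in replicate 1 (-0.15 with the block) and 0.26 without it in replicate 2. GATA3 209603_at in IgG IP against Total RNA was 0.094 within replicate 1. When an array was left out, MYB 204798_at ran from -0.091 to 0.58 in AGO2 IP against Total RNA and from -0.092 to 0.88 in AGO2 IP against IgG IP. The cause was not tested. LMO1 kept its sign, at 0.74 to 1.13 in AGO2 IP and 0.70 to 1.40 in IgG IP. With 2 arrays per group, a difference that missed the threshold is not shown to be 0.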
